A study of Mus musculus with 4 samples.

Results

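The promoters described here are those of protein-coding genes that carried an ATAC-seq peak in all 4 libraries of adipose tissue. Peaks of the 4 deposited lists on chromosomes 1 to 19 were pooled and overlapping peaks were merged, which gave 144198 regions. Of these, 37960 held a peak of every library. The members were thus selected on measured peaks, so their being open in all 4 libraries is no result. A region was kept when it lay within 500 bp of the start site of a curated protein-coding RefSeq transcript. Start sites with an opposite-strand start site of another gene within 1 kb were left out, because a peak there cannot be given to 1 gene. The rule kept 9962 regions, 26.2% of the shared regions (95% Wilson interval 25.8 to 26.7, counting error only), and they are called open coding promoters below.

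The tissue was visceral fat of 8-week-old CD-1 mice, an outbred stock. The 2 control libraries trace back to sesame oil, the vehicle. The 2 BPA libraries come from descendants of pregnant mice that received bisphenol A, a monomer of polycarbonate plastics, by intraperitoneal injection of 50 mg/kg between embryonic days 7.5 and 13.5. How many generations lie between is not stated here because the sources differ on it, and the peak list of BPA 2 carries another replicate number than its label. The study's text gives 4 mice for the 4 libraries. Nothing in the labels names the sex of the animals or a batch, so a batch that follows the groups cannot be told apart from them. The lists held between 71128 and 96180 peaks on these chromosomes, fewest in BPA 1 and most in BPA 2. Read totals were not used here, so depth was compared only through ranks.

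A promoter is the stretch around a transcription start site where RNA polymerase II and its general factors assemble. At an active promoter the nucleosomes are displaced, and the transposase of ATAC-seq can insert adapters there. Promoters of genes that nearly every cell uses often lie in CpG islands, which are rich in G, C and the dinucleotide CG, and start transcription over a broad zone. Promoters of genes used by few cell types more often carry a TATA box and are poor in CG. In fat, the lipid-filled adipocytes share the tissue with endothelial cells, stromal progenitors and leukocytes, and all of them contribute nuclei.

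Sequences of the bases just before the start site are shown for promoters at both ends of the rank order and for the leading promoter of each direction between the groups. They are RefSeq sequences of GRCm38, the assembly that mm10 names, 5′ to 3′ along the gene. They are the reference mouse's and not those of these CD-1 animals. Each run covers the 150 bases before the start site, and capitals mark any of 11 motifs searched on both strands, which are given with the base composition. The start sites of 7705 of the 9962 promoters (77.3%) were found in the RefSeq promoter table. Sfi1, which had the largest gap in favour of the BPA libraries, was not among them, so Mob1a, the next in that order, is shown. Zfp619, Idi1 and Hps3 led the promoters by the poorest of their 4 ranks. Zfp619 lies at chr7:39517616-39517765 on the plus strand, Idi1 at chr13:8885456-8885605 on the plus strand and Hps3 at chr3:20035311-20035460 on the minus strand.
Zfp619: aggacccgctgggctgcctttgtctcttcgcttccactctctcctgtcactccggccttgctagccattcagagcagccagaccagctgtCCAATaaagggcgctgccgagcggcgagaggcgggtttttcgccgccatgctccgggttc
Idi1: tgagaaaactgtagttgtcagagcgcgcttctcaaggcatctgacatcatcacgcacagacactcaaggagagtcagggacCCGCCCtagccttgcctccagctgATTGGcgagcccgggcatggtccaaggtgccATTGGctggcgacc
Hps3: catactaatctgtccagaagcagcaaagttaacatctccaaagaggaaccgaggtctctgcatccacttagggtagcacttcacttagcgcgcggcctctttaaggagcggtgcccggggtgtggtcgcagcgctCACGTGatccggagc
Zfp619 carried CCAAT, Idi1 carried GGGCGG once and CCAAT in 2 places, both on the other strand, and Hps3 carried CACGTG a short way before its start site.

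Pcsk1 and Barhl2 stood at the other end, by the best of their 4 ranks. They lie at chr13:75089707-75089856 on the plus strand and at chr5:106458167-106458316 on the minus strand.
Pcsk1: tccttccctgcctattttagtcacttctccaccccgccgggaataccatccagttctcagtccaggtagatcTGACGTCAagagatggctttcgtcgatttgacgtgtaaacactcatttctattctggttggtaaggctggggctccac
Barhl2: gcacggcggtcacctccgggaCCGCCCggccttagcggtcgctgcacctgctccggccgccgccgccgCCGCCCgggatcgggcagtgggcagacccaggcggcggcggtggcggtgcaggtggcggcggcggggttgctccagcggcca
The stretch of Pcsk1 was 50.0% G+C and held the cAMP response element TGACGTCA. That of Barhl2 was 80.7% G+C and held GGGCGG in 2 places, both on the other strand, but the peaks of Barhl2 lay further upstream, outside this stretch. Mob1a, shown for promoters ranked better in the BPA libraries, at chr6:83325889-83326038 on the plus strand, and Cwc22, which had the widest gap in favour of the controls, at chr2:77946357-77946506 on the minus strand stand for the opposite directions between the groups.
Mob1a: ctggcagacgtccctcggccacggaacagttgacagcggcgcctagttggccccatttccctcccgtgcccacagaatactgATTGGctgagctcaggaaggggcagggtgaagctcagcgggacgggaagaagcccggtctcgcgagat
Cwc22: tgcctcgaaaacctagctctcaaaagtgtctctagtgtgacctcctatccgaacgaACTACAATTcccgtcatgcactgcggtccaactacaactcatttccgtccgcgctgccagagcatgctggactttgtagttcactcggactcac
Mob1a carried CCAAT on the other strand, and Cwc22 carried ACTACAATT in a stretch of 51.3% G+C.

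The 9962 promoters stood for 9660 genes, 55.1% of the 17540 genes with an eligible start site. Another 1994 genes (11.4%) had a peak in 1 to 3 libraries and 5886 genes (33.6%) had none. A promoter belonged to 1 gene in 9873 cases. In 357 genes more than 1 promoter was open, and Dab2ip, Plec and Tmcc3 had 4 each. The merged region covered the start site itself in 98.0% of cases. The best peak of every library did so in 84.9%. For 9654 promoters (96.9%) each library had its own peak in the 500 bp window of the same start site, and in the other 308 a peak reached the window only in the merged region.

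Few members stood at the edge of the rule. There were 846 further regions at eligible start sites with a peak in 3 libraries, 793 with 2 and 785 with 1. Among those with 3, the missing library was control 2 in 390, control 1 in 261, BPA 1 in 154 and BPA 2 in 41. The weakest peak of a member had a −log10 q under 2 in 48 promoters. The lowest was at Ralgds, an exchange factor for Ral GTPases, where one of its regions had a −log10 q of 4.48 and 1.43 in the controls and of 4.97 and 16.9 in the BPA libraries. On the distance rule, 35 promoters touched only the last 100 bp of the window, and 38 shared regions lay in the first 100 bp outside it.

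The strength of each promoter was read as its rank, the position of its best peak by the deposited −log10 q-value as a percent of that library's list, so that a low rank is a strong peak. Open coding promoters ranked near the top of every list. Their median rank was 10.6% and 12.2% in control 1 and 2, and 9.93% and 7.0% in BPA 1 and 2. Shared regions with no start site within 500 bp ranked at 36.0%, 32.5%, 43.0% and 32.2% in the same order. The bidirectional coding promoters that the rule left out ranked higher still, at 5.29%, 5.93%, 5.51% and 4.04%. All 4 libraries gave this order of the 3 classes.

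**Figure D1:**
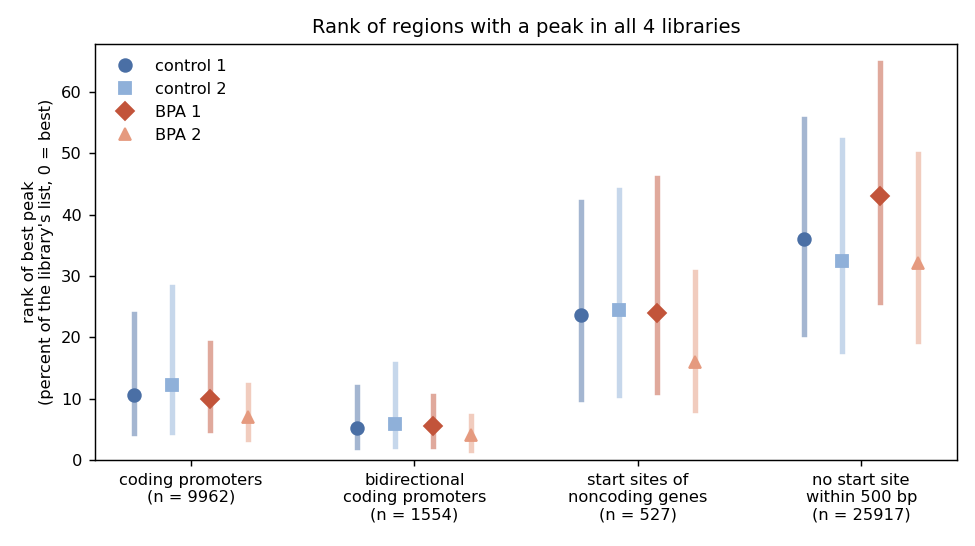
Rank of the best peak in regions with a peak in all 4 libraries, as a percent of each library's list on a linear axis where 0 is best, by class of region; symbols are medians over regions and bars run from the lower to the upper quartile. In all 4 libraries coding promoters (medians 7.0% to 12.2%) sit between bidirectional promoters and regions without a start site.

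Open coding promoters held 10.4% to 14.9% of the peaks in a list and 66.3% to 71.6% of its best 1%. Part of this can follow from the rule, which asks for a peak in every list. All shared regions, which meet that condition too, had median ranks of 27.3% and 25.8% in the controls and of 31.2% and 22.8% in the BPA libraries. Their share of the best peaks was not computed. In all, 96 promoters were within the best 1% of every list, 3365 (33.8%) within the best 10% and 8330 (83.6%) within the best 50%. BPA 2 gave the best rank of the 4 for 5535 promoters and control 2 the poorest for 4075. BPA 1 gave the best rank for 849 and the poorest for 2584, and control 1 the poorest for 2442. Across promoters the ranks of the control libraries had a Spearman correlation of 0.879, those of the BPA libraries 0.926, and pairs from different groups 0.683 to 0.794. These are descriptions over 9962 promoters that share the same lists. In shared regions without a start site the same correlations were 0.585, 0.779 and 0.311 to 0.392.

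The strongest promoters by their poorest rank belonged to genes of varied roles. The promoter of Zfp619, a zinc finger protein, ranked 0.0569% and 0.0368% in the controls and 0.0127% and 0.0416% in the BPA libraries. The promoter of Idi1, the isopentenyl-diphosphate isomerase of sterol synthesis, ranked 0.0643%, 0.0885%, 0.0281% and 0.0447% in the same order. That of Hps3, a subunit of a complex that builds lysosome-related organelles, ranked 0.130%, 0.139%, 0.0492% and 0.0977%. All 3 were within the best 0.139% of each list. The other 7 of the top 10 were Kdm4a, a histone demethylase, Cep97, a centriolar protein, Zfp868, Tomm40, the import pore of the outer mitochondrial membrane, 9430038I01Rik, Hjurp, the chaperone that loads CENP-A, and Cic, a transcriptional repressor. Their poorest ranks ran from 0.150% at Kdm4a to 0.249% at Cic.

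At the other end, 6 promoters had the poorest ranks by the best of their 4. Pcsk1, a prohormone convertase, ranked 86.0%, 91.5%, 88.5% and 88.1% from control 1 to BPA 2. Barhl2, a homeobox factor of the developing nervous system, ranked 89.4%, 96.5%, 92.7% and 79.2%. Dmtn, which encodes the actin-binding protein dematin, Cdh3, which encodes P-cadherin, a start site of the imprinted Gnas locus, and Lgi1, a secreted neuronal protein, followed. No library ranked any of these 6 better than 68.7%. The region of Barhl2 ended 157 bp before the start site and that of Cdh3 began 153 bp after it, so neither covered it.

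The promoters had a median merged width of 1498 bp, from 307 to 5804 bp, against 1217 bp over all shared regions. The best peak had a median width of 1208 and 958.5 bp in the controls and 1012 and 1326.5 bp in the BPA libraries. The group means were 1083 ± 176 bp in controls and 1169 ± 222 bp in BPA (SD, n = 2), a difference of 86.0 bp that was smaller than the spread within either group and turned to −26.5 bp without control 2 and to −73.0 bp without BPA 2. The 6 widest regions were those of Ppp1r9b (spinophilin), Gse1, Ccn1 (a matricellular protein induced by growth factors), Brd2 (a bromodomain protein), Tgif1 (a homeobox repressor) and Sgk1 (a kinase induced by serum and glucocorticoids), all at least 4762 bp. Wide regions did not all rank high. Ppp1r9b, the widest, ranked 53.3%, 20.7%, 11.7% and 16.5% from control 1 to BPA 2, while Sgk1 ranked 13.6%, 6.24%, 4.27% and 1.28%. The 4 narrowest were Rnf26, H2bc14 (a histone H2B gene), Cd86 (a costimulatory receptor of antigen-presenting cells) and Mvp (the major vault protein), at 307 to 359 bp. At Rnf26 the 4 summits lay within 2 bp of each other, at −570, −568, −569 and −569 bp, and the region ended 410 bp before the start site.

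Summits of the peaks lay close to the start site, and their medians were further downstream in the BPA libraries. Measured along the direction of transcription, the median summit was at −31 and −44 bp in the controls and at 6 and 29 bp in the BPA libraries. The share of summits upstream of the start site was 58.4%, 64.9%, 48.0% and 40.5%. The groups did not overlap on either measure, and the difference of the group means was 55 bp. Genes on the plus strand (medians −33, −45, 4 and 27 bp) and on the minus strand (−30, −44, 9 and 30 bp) gave the same order. Between 47.3% and 51.1% of summits were within 100 bp of the start site.

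Promoter by promoter, both BPA summits lay downstream of both control summits at 3505 promoters (35.2%), and upstream of both at 1235 (12.4%). Over all shared regions, where the genome coordinate gives the direction, 21.2% had both BPA summits higher and 21.2% lower. That scale mixes both strands, so a shift along transcription would cancel on it. It gives only how often the summits of the groups were apart. Among the 8317 promoters with 1 peak per library the shares were 35.9% and 11.7%. The 4 summits of a promoter spanned a median of 163 bp. The reference bases were richer in G+C after the start site than before it, with medians of 67.6% in the 250 bases from the start site on and 60.4% in the 250 bases before it. The part of G+C content in the summit positions was not tested.

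**Figure D2:**
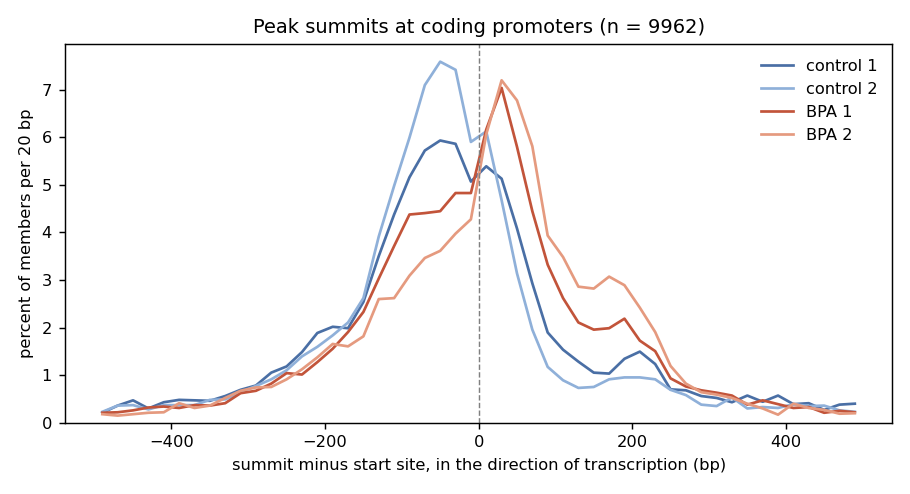
Position of the best peak's summit relative to the start site, in bp along the direction of transcription, as the percent of the 9962 open coding promoters per 20 bp; each line is 1 library. The medians of the control libraries lie before the start site (−31 and −44 bp) and those of the BPA libraries after it (6 and 29 bp).

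The comparison between the groups asked at which open promoters the BPA libraries ranked differently from the controls. With 2 libraries against 2 the smallest two-sided p of an exact permutation test is 0.33, so no test was run and only the order of the ranks is described. The group mean of the median ranks was 11.4 ± 1.18% in controls and 8.47 ± 2.08% in BPA (SD, n = 2), a difference of −2.95 percentage points. The values did not overlap, since both BPA medians were below both control medians. In regions without a start site the difference had the other sign, 3.38 points, and the libraries overlapped.

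Both BPA libraries ranked a promoter better than both controls at 4155 promoters, or 41.7%, where the share over all shared regions was 27.8%. Both controls ranked it better at 1784, or 17.9%, where the share over all shared regions was 27.5%. The bidirectional coding promoters had nearly the same split, 40.5% and 20.9%, so it was not particular to the promoters described here. With a gap of at least 2 times, the better rank of the poorer group over the poorer rank of the better one, the counts were 1249 (12.5%, against 7.17% of all shared regions) and 536 (5.38%, against 6.46%). When each promoter was ranked among the 9962 promoters only, a scale on which the libraries have the same median, the split became 3041 against 2924. With peaks of −log10 q of at least 5 only, it became 4642 (51.3%) against 1033 (11.4%), while all shared regions moved the same way, to 36.7% against 17.2%. On the first of these scales the opposite directions were close to equal in number.

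The direction moved with base composition. In 5 equal bins of G+C content, taken over the 300 bases at the middle of the region, the share ranked better by both BPA libraries rose from 29.5% in the poorest bin (median G+C 50.0%) over 36.3%, 41.2% and 50.3% to 51.3% in the richest (76.0%). The share ranked better by both controls went from 28.0% over 23.8%, 19.6% and 12.0% to 6.12%. Regions without a start site gave the same order, from 12.8% to 35.3% for BPA and from 42.9% to 19.9% for controls. At equal G+C the classes were closer. Between 55% and 60% G+C the BPA share was 34.7% in promoters and 33.2% in regions without a start site, while between 40% and 45% it was 25.8% and 14.8%. Between 60% and 65% it was 39.5% and 40.5%, so promoters no longer had the larger share. The control share was 28.9% and 38.2% between 40% and 45%, but 25.0% and 20.5% between 55% and 60% and 21.4% and 17.5% between 60% and 65%. Wide promoters leaned the same way, with 52.1% BPA-better in the widest of 4 equal bins and 34.4% in the narrowest. Unlike G+C content, width was taken from the same peaks as the ranks, so it is not a separate trait. The part of G+C content or of library preparation in the difference between the groups was not tested.

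**Figure D3:**
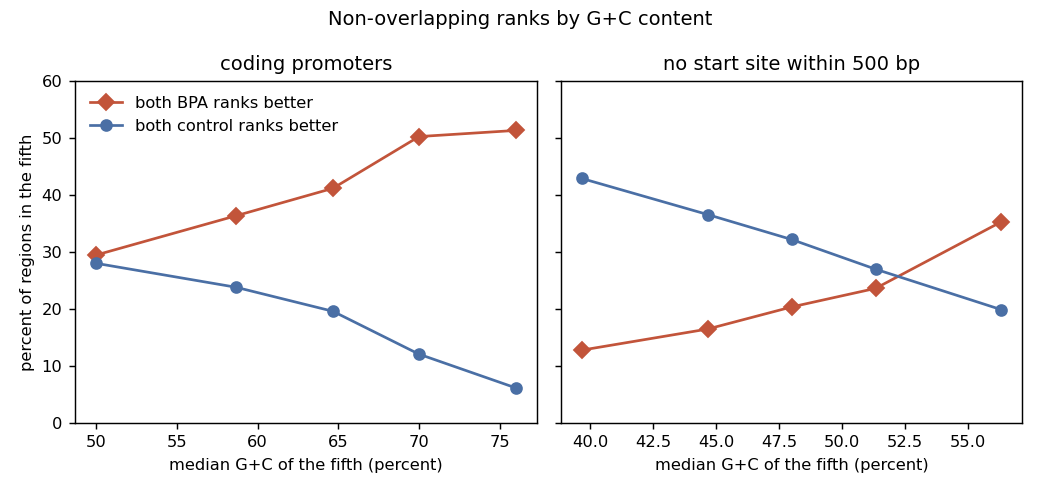
Percent of regions whose ranks do not overlap between the groups (vertical axis), against the median G+C content of each of 5 equal bins in percent (horizontal axis), for coding promoters on the left and regions without a start site on the right. In both panels the share ranked better by both BPA libraries rises with G+C (29.5% to 51.3% in promoters) and the share ranked better by both controls falls.

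In favour of the BPA libraries, the widest gap was at Sfi1. Sfi1, a centrin-binding protein, had a rank of 0.653% and 8.72% in the controls and of 0.00844% and 0.00312% in the BPA libraries. Its fold over the local background was 3.62, 2.69, 11.8 and 12.0. Both controls had the poorer rank and the lower fold. Ranked by fold, it stood at 59.7%, 96.1%, 7.33% and 3.33%, so its control peaks ranked far better by q-value than by fold. The median fold over all open coding promoters was 5.87, 6.56, 10.2 and 9.51 in the same order, also lower in both controls. Mob1a, a cofactor of the Hippo kinases, ranked 2.89%, 7.42%, 0.0450% and 0.0426%. Immt, which shapes the mitochondrial cristae, ranked 0.720%, 1.46%, 0.0112% and 0.00416%. Next came Tsga10, Kansl2 (a subunit of a histone acetyltransferase complex), Carm1 (an arginine methyltransferase that coactivates transcription), Slc35e2 and Puf60 (a splicing factor), with gaps of 63.9 to 24.7 times. Ranked by fold in place of q, all 8 kept their direction, with gaps of 1.35 times at Carm1 to 13.3 times at Puf60.

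In the other direction the widest gap was at Cwc22, a splicing factor, which ranked 0.00495% and 0.00345% in the controls and 10.5% and 7.62% in the BPA libraries. It was among the strongest peaks of both control lists by q-value. Its fold, however, was 10.3, 10.8, 13.9 and 13.2. The median fold of all open coding promoters was likewise higher in both BPA libraries, so these folds are not compared directly between the groups. Ranked by fold within each library, Cwc22 stood at 0.419%, 1.33%, 3.22% and 1.71%, and the gap shrank from 1540 to 1.29 times. Tmem184c ranked 0.104%, 0.143%, 5.60% and 4.95%, and Ngdn ranked 0.0285%, 0.0310%, 1.24% and 0.889%. The others were Tmem218, Cep128 (a centriolar protein), Msantd4, Rsu1 (a suppressor of Ras signalling) and Ccdc61, with gaps of 26.9 to 20.9 times. By fold, 7 of the 8 kept their direction and Msantd4 overlapped. Over all promoters, 73.8% of the BPA-better and 54.8% of the control-better ones kept their direction by fold, and 2.62% and 5.89% took the other.

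**Figure D4:**
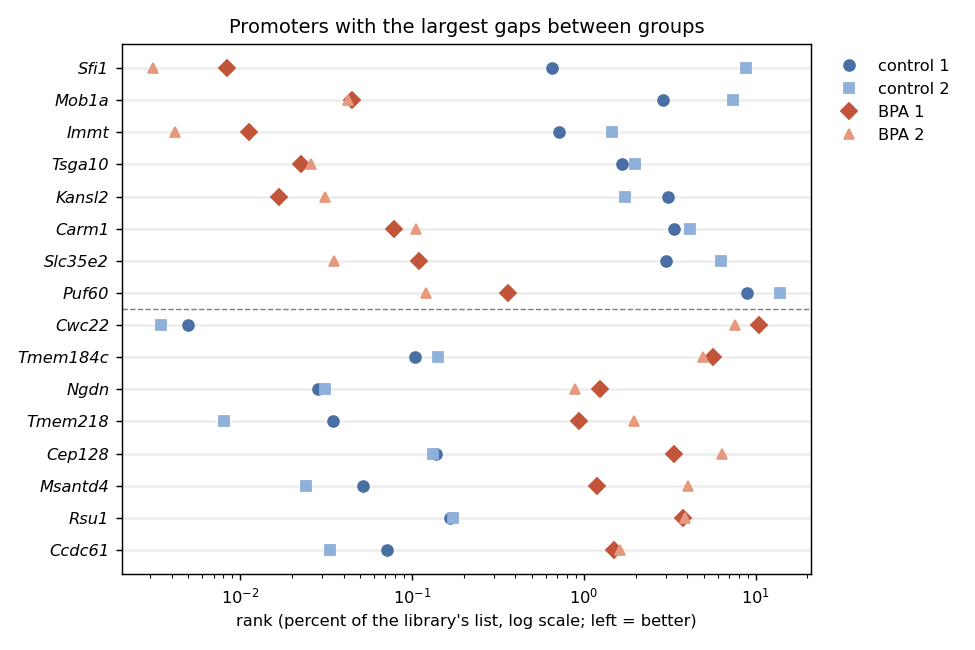
Rank of 16 promoters in each library, as a percent of the library's list on a log axis, with 1 symbol per library; the upper 8 have the widest gaps in favour of the BPA libraries and the lower 8 in favour of the controls. The symbols of the groups are apart in every row by choice of the genes, widest at Cwc22 and Sfi1.

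Gene families ranged from all genes open in all 4 libraries to none. Of the 42 families examined, 22 had a larger share open in all 4 libraries than the 55.1% of all eligible genes. Several families of basic cell functions were complete. All 23 spliceosomal, 21 mediator and 15 RNA polymerase subunits with an eligible start site were open, as were all 14 cytosolic aminoacyl-tRNA synthetases and all 13 peroxins. Of the cytosolic ribosomal proteins 59 of 64 were open. The 4 without any peak were Rpl10l, Rpl32l, Rpl39l and Rpl3l, which are paralogs of the standard proteins, and Rpl36 had a peak in some libraries. Of the mitochondrial ribosomal proteins 48 of 49 were open, and the exception, Mrps12, has a bidirectional start site that was left out but lay in a shared region.

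The respiratory chain and the proteasome showed the same division between general and tissue-restricted paralogs. Of the nuclear oxidative phosphorylation subunits 55 of 62 were open. Cox6a2, Cox7b2, Cox8c, Ndufa4l2 and Ndufb4c had no peak, and Cox4i2 and Cox8b had one in some libraries. Cox6a2 and Cox8b are the heart and muscle forms of their subunits. Of 32 proteasome subunits 30 were open. Psma8, the spermatocyte subunit, had no peak and Psmb11, the thymus subunit, had one in some libraries. Of 17 vacuolar ATPase subunits 11 were open, and the 4 without a peak included Atp6v1b1 and Atp6v0a4, known from kidney and inner ear. Of 46 Rab GTPases 42 were open, without a peak at Rab17 and Rab25, which are epithelial.

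**Figure D5:**
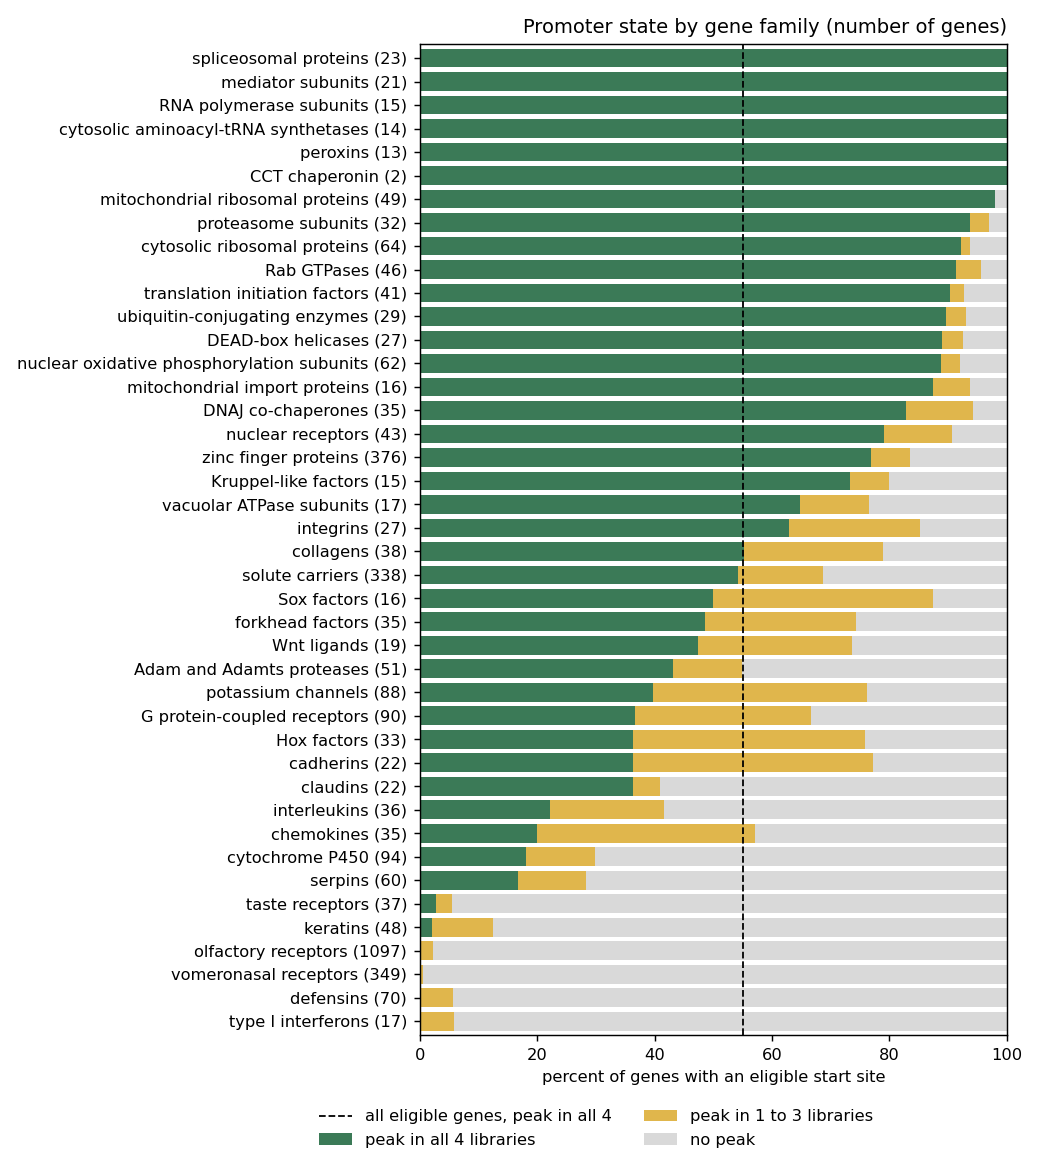
Promoter state of 42 gene families, as the percent of each family's genes with an eligible start site (their number in parentheses) that had a peak in all 4 libraries, in 1 to 3 or in none; the dashed line is the 55.1% of all eligible genes. Spliceosomal, mediator, RNA polymerase, aminoacyl-tRNA synthetase, CCT and peroxin genes are at 100%, and olfactory, vomeronasal and taste receptors, keratins, defensins and type I interferons are near 0.

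Transcription factor families spread over a wide range. Zinc finger genes were open in 289 of 376 cases, nuclear receptors in 34 of 43 and Kruppel-like factors in 11 of 15. Forkhead factors were open in 17 of 35, Sox factors in 8 of 16 and Hox factors in 12 of 33. Kruppel-like factor promoters were wide, with a median of 2307 bp, and ranked 5.31%, 5.65%, 4.41% and 4.92% at the median from control 1 to BPA 2. Hox promoters ranked at 43.3%, 53.8%, 26.1% and 16.6%, poorer in both controls. The best of them was Hoxb4, at 15.2%, 15.8%, 11.7% and 7.76%, and the poorest Hoxb2, at 95.2%, 70.0%, 29.7% and 16.2%.

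Families of the cell surface, the matrix and signals were on both sides of the share of all eligible genes. Solute carriers were open in 183 of 338 cases, collagens in 21 of 38, integrins in 17 of 27, Wnt ligands in 9 of 19, potassium channels in 35 of 88, and claudins and cadherins in 8 of 22 each. Cytochrome P450 genes were open in 17 of 94, serpins in 10 of 60, chemokines in 7 of 35 and interleukins in 8 of 36. Sensory and barrier families had few or no promoters open in all 4 libraries. Olfactory receptors had 1 open promoter among 1097, at Olfr544, which ranked 26.1%, 22.7%, 77.6% and 49.9%. Taste receptors had 1 of 37, keratins 1 of 48, and vomeronasal receptors (349), defensins (70) and type I interferons (17) had none. Genes of such families often lie in arrays of related copies, and the authors kept uniquely mapped reads. A missing peak is therefore less certain where copies are nearly identical.

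The direction between the groups also varied by family. Both BPA libraries ranked 9 of 12 Hox promoters better and both controls 1. The counts were 12 and 2 of 17 integrin promoters and 11 and 1 of 17 forkhead promoters, against 41.7% and 17.9% of all open coding promoters. These 3 families had the largest BPA-better shares of any family, so they are extremes of these data. All alternatives use the same libraries and are no independent support. Under every alternative tried for this count, these families had more BPA-better than control-better promoters. So did open coding promoters as a whole in every setting with all 4 libraries, so that order was not particular to these families. Ranked among open coding promoters only, the BPA-better shares of Hox, integrin and forkhead promoters were 66.7%, 52.9% and 41.2%, against 30.5% of the whole. The control-better shares were 16.7%, 23.5% and 17.6%, against 29.4%. Cytosolic aminoacyl-tRNA synthetases had more control-better than BPA-better promoters under every alternative tried, with 2 BPA-better and 5 control-better of 14. Zinc finger promoters gave 81 BPA-better (28.0%) and 106 control-better (36.7%) of 289, but the larger count changed sides by fold (99 and 62), with −log10 q of at least 5 (94 and 80 of 281) and without BPA 1 (128 and 114 of 294). Set beside all open coding promoters in the same setting, their BPA-better share was the lower one and their control-better share the higher one each time. By fold the shares were 34.3% and 21.5%, against 40.2% and 15.4% of all open coding promoters. With −log10 q of at least 5 they were 33.5% and 28.5%, against 51.3% and 11.4%, and without BPA 1 they were 43.5% and 38.8%, against 60.9% and 21.1%. Oxidative phosphorylation promoters gave 8 and 16 of 55, but 18 and 13 by fold, 13 and 11 with −log10 q of at least 5, 23 and 20 without control 1, and 17 and 17 without BPA 1. Their shares were 32.7% and 23.6% by fold and 23.6% and 20% with −log10 q of at least 5, so they too had fewer BPA-better and more control-better promoters than the whole in these settings.

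Promoters of genes that mark fat were mostly members, with median ranks poorer than those of all open coding promoters in each library. Of 20 adipocyte genes 17 had open promoters, with median ranks of 28.7%, 20.3%, 15.7% and 9.17% from control 1 to BPA 2. The adipokine gene Adipoq ranked 23.8%, 20.3%, 67.2% and 51.3%, better in both controls. Pparg, the master regulator of adipocytes, ranked 78.6%, 54.8%, 15.7% and 7.21%, and Cebpa, its partner, 15.8%, 14.8%, 5.59% and 4.48%, both better in both BPA libraries. Fasn, the fatty acid synthase, ranked 15.3%, 16.3%, 7.30% and 2.22%, and Scd1, the stearoyl-CoA desaturase, 6.47%, 6.76%, 10.2% and 9.17%. In this list 7 of 17 promoters were BPA-better and 3 control-better, close to the 41.7% and 17.9% of all open coding promoters. Acaca and Adrb3 had no peak and Cfd had one in control 1 only. All 10 housekeeping genes with an eligible start site were members, among them Actb at 19.2%, 18.1%, 8.75% and 3.44%.

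Markers of other cells in the tissue differed in whether they were members at all. All 15 endothelial genes with an eligible start site had a peak in both BPA libraries, but 6 had one in control 1 and 5 in control 2. Only 5 (Tek, Kdr, Flt1, Esam and Cldn5) were therefore open in all 4 libraries, and 4 of these ranked better in both BPA libraries. Kdr, a receptor of vascular endothelial growth factor, ranked 32.5%, 33.0%, 14.6% and 11.2%. The promoters of Pecam1, Cdh5, Tie1 and Vwf had a peak in the BPA libraries only. Of the leukocyte genes 4 of 11 were members and 6, 5, 7 and 8 had a peak from control 1 to BPA 2. Of the stromal progenitor genes 8 of 9 were members, the same 8 in each library. In bulk tissue, fewer cells of a type and less accessible chromatin per cell cannot be told apart. The part of the cell makeup of the samples in the other differences between the groups was not tested.

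Genes of the mesothelial, hepatocyte, germ cell, neuronal and epithelial lists were mostly not open in all 4 libraries. No mesothelial gene of 4 was a member, though 3, 1, 1 and 0 of them had a peak from control 1 to BPA 2. The 2 hepatocyte genes had no peak in any library. Of 4 germ cell genes only Dazl was a member, in a region that began 299 bp after the start site and in which not every library had its own peak within the window. The region of Snap25, the 1 neuronal member, began 416 bp after the start site. Epcam was the 1 epithelial member of 4, and there too not every library had its own peak within the window.

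Sequence, which the rule did not use, differed between open promoters and the others. For a gene open in all 4 libraries, the eligible start site nearest its best summit was taken. For the other genes it was the 5′-most eligible one, so the peaks chose the site for open genes only. In the 300 bases from 250 before to 50 after the start site, median G+C was 61.7% for genes open in all 4 libraries, 55.7% for genes open in some and 46.3% for genes open in none. The ratio of observed to expected CG dinucleotides was 0.765, 0.401 and 0.175. A G+C of at least 55% together with a ratio of at least 0.6, a usual criterion of CpG islands, was met by 63.0% of open genes, 28.1% of genes open in some libraries and 4.26% of the rest, against 39.3% of all eligible genes. With every eligible start site counted, which needs no choice by peaks, these shares were 56.3%, 27.3% and 4.60%, against 37.7%.

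Motifs were searched on both strands of the same 300 bases, and a match is only a match of letters. GGGCGG, the core bound by Sp1, stood in 68.1% of open promoters, against 46.4% of all eligible promoters and 12.5% of those open in no library. Its longer form GCCCCGCCC, whose other strand contains GGGCGG, stood in 25.4% against 16.2%. The ETS site CCGGAAG stood in 16.3% against 10.3%, the NRF1 core GCGCATGC in 5.31% against 3.34%, the cAMP response element TGACGTCA in 3.35% against 2.23%, and the YY1 site AAGATGGC in 4.05% against 2.77%. CACGTG, the E-box, was at 10.4% against 7.79%, and ACTACAATT, the core of the ZNF143 site, at 0.807% against 0.530%. CCAAT, the NF-Y site, differed little, at 37.4% against 38.3%. The TATA box TATAAA, at 6.69% against 14.0% and 26.4% of promoters without a peak, and the AP-1 site TGACTCA, at 3.33% against 4.78%, were rarer in open promoters. With every eligible start site counted, the differences were smaller for some motifs. GGGCGG then stood in 62.2% at open genes against 45.2%, and CCGGAAG in 14.4% against 9.61%.

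Only 38.1% of the matches of AAGATGGC in open promoters lay before the start site, although 250 of the 300 bases searched did. Ranks also differed between promoters with and without some of the letters. Promoters with CCGGAAG had median ranks of 6.75%, 7.27%, 7.47% and 5.50% from control 1 to BPA 2, and those without it 11.7%, 13.5%, 10.6% and 7.37%. Promoters with CCAAT ranked 7.83%, 8.44%, 8.09% and 6.17%, and those without it 12.3%, 14.7%, 10.9% and 7.42%. Both differences were larger in the controls. The 78 promoters with ACTACAATT ranked 4.02%, 3.47%, 6.95% and 5.80%. Of them 47.4% were control-better and 21.8% BPA-better, and their median G+C was 52.7%. Promoters with GGGCGG, at a median G+C of 64.7%, were BPA-better in 45.5% and control-better in 14.7%, and those without it in 34.0% and 24.6%. Since G+C content differs between these sets, the part of the motif and that of base composition were not separated.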

How the data were processed

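ATAC-seq libraries (Omni-ATAC on isolated nuclei) were peak-called singly. Per the study's methods and processing notes, the authors trimmed reads with Trim Galore, mapped them to mm10 with Bowtie2 2.3.5.1, kept uniquely mapped reads, removed duplicates and called peaks with MACS2 2.2.7.1. The deposited score is 10 times the −log10 q-value. The deposited ratio is the fold of pile-up over local background. The p-value and the q-value were deposited as −log10, and every list reaches down to a q-value of about 0.05. The lists give no read totals.

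Peaks sharing at least 1 bp were merged. Start sites were those of curated RefSeq transcripts on GRCm38 (30219 distinct, 24860 coding, 21546 eligible). Peaks were ranked by −log10 q within a library, ties averaged. Ranks do not remove differences in depth or fragment length between libraries. A gene stood for the region whose eligible start site lay nearest its best summit. Python 3.11.15, pandas 2.3.3, scipy 1.17.1 and samtools 1.23.1 were used, and the scripts were tested on simulated peaks. The promoters, families, marker lists, motifs and alternatives were chosen with earlier results of these data known, and the rule itself uses measured peaks, so no p-value is given. Named genes were those with the best and poorest ranks, the widest and narrowest regions, the widest gaps, the marker and housekeeping lists and the family extremes, and Ralgds and genes missing from small families were added after their values were seen. Genes called open in no library or in some can have an excluded bidirectional start site in a shared region (100 and 28 genes). X and Y were not used.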

Additional observations from a re-analysis of the deposited data

How the results depend on the processing

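The number of open coding promoters, 9962, stayed within 1.5 times under every alternative run: 10123 with a window of 1000 bp, 11516 with bidirectional start sites kept, 9053 with −log10 q of at least 5, 9718 with equal numbers of peaks (71128 per list), 8104 with all 4 summits in the window, 9654 with a peak of every library in the window (chosen after seeing the data), and 9913 to 10350 with 1 library left out. The difference in median rank, −2.95 points (BPA minus control), kept its sign and became −5.23 by fold, −6.15 among shared regions, −6.16 with −log10 q of at least 5, and −4.57 to −1.48 with 1 library left out. The BPA-better count of 4155 ran from 3041 to 6159, and the share over all shared regions moved with it. Without control 1, control 2 or BPA 1 that share was 40.3%, 41.8% and 39.8%, against 27.8% with all libraries. The promoters were then BPA-better in 56.0%, 51.8% and 60.9%. These settings all kept BPA 2, the library that gave the best rank most often. The control-better count of 1784 became 2924 when ranked among members and 1033 with −log10 q of at least 5. With 1 library left out, where fewer libraries make non-overlap easier, it ran from 2133 without BPA 1 to 3176 without BPA 2. The width difference of 86.0 bp ran from −73.0 to 243.75 bp with 1 library left out and so had no fixed sign. The share with CpG island composition, 63.0%, became 56.3% over all eligible start sites. The summit difference of 55 bp and the number of families above all genes (22) were the same or within 1.5 times under their alternatives. Of the further values for single families, motifs and genes, 350 stayed within their interval or direction and 30 moved, most of them motif shares in a longer window or over all start sites. The causes were not tested. No paired analysis was possible because the labels link no control library to a BPA library. The 2 libraries a group were only described, with ranks, and never tested.

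Peak lists hold no read totals, so a promoter without a peak was not detected at that library's depth, which is not shown to be closed. Control 2 lacked the most promoters found in the other 3 libraries and BPA 2 the fewest. Each group has 2 libraries, so group differences carry no p-value, and a difference between groups cannot be told apart from one between these libraries.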
